A study of Homo sapiens with 32 samples.

Results

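Genes of neuroendocrine function were compared between LNCaP cells grown without steroid and after treatment with a synthetic androgen, with *DDC*, the gene of the enzyme that makes dopamine and serotonin, examined probe set by probe set. The genes were chosen by name, with earlier results of these data known. They were *DDC*, *OPRK1*, *NTS*, *CHGA*, *CHGB*, *SCG2*, *ENO2*, *BCHE*, *CBLN2* and *LRRN1*. All 10 had a transcript cluster with that single symbol among the 16309 clusters of the array, and they had 101 of its 620335 probe sets, 15 of them in *DDC*. A transcript cluster joins the probes of a gene, and a probe set is a small group of probes within an exon or part of an exon. LNCaP is an established, androgen-responsive human prostate cancer line, and all cells had first been kept for 72 hours in medium with charcoal-stripped serum. The 4 steroid-deplete cultures received no androgen, and the 4 treated cultures received 10 nM R1881 (methyltrienolone) for 24 hours. No other cell line, dose or time was on these arrays, so each value describes a single line at a single time.

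Neuroendocrine cells are scattered secretory cells of the prostate epithelium that store amines and peptides in dense-core granules. The granins *CHGA*, *CHGB* and *SCG2* are proteins of those granules, and *ENO2*, neuron-specific enolase, is a common marker of such cells. LNCaP cells are known to take on neuroendocrine features when androgen is withdrawn. Of 12 luminal prostate markers 7 were measured, and all 7 lay above the median of all clusters, while the androgen receptor gene itself was not analysed here. The secreted proteases *KLK2* and *KLK3* and the membrane protease *TMPRSS2*, known androgen-responsive genes, rose by 2.54, 1.82 and 2.57 on the log2 scale. With the limit at an adjusted p of 0.05 and none on fold, 3 of the 7 were higher and 2 lower. The latter were *HOXB13* (-0.44) and *CDH1* (-0.37), and the median over the 7 was -0.01. Of all clusters, 19.8% were lower and 10.5% higher by that limit. Of 14 measured basal, stromal and leukocyte markers, none was called in either direction at gene level by limma or by the methods' t-test (2 were lower and 1 higher at an unadjusted p under 0.05), and 3 lay above that median. Array medians were 6.33 to 6.40 in steroid-deplete medium and 6.22 to 6.31 after R1881 on the log2 scale.

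Of the 10 genes, 5 were lower after R1881 and none was higher. *LRRN1*, *CBLN2*, *OPRK1*, *BCHE* and *DDC* were 19.7-fold, 9.98-fold, 4.71-fold, 4.18-fold and 4.09-fold lower. *ENO2* was 1.73-fold lower, short of the 2-fold limit, and the 3 granins and the neuropeptide gene *NTS* were not called. A call required an adjusted p under 0.005 and at least a 2-fold difference of the gene-level RMA values, with limma and Benjamini-Hochberg adjustment over all clusters. By this rule 2.04% of all clusters were lower and 1.94% were higher. No member was higher at an unadjusted p under 0.05 either, or by the methods' t-test. The arrays of the 2 treatments did not overlap for 6 genes, all lower after R1881, where 18.7% of all clusters were so separated as lower and 11.2% as higher. The median log2 fold change was -1.41 over the 10 genes and -0.003 over all clusters. Since the 10 were chosen with earlier results of these data known, their counts and median are a description beside those of all clusters. RNA came from whole cultures, so fewer cells that express a gene and less RNA per cell cannot be told apart.

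**Figure D1:**
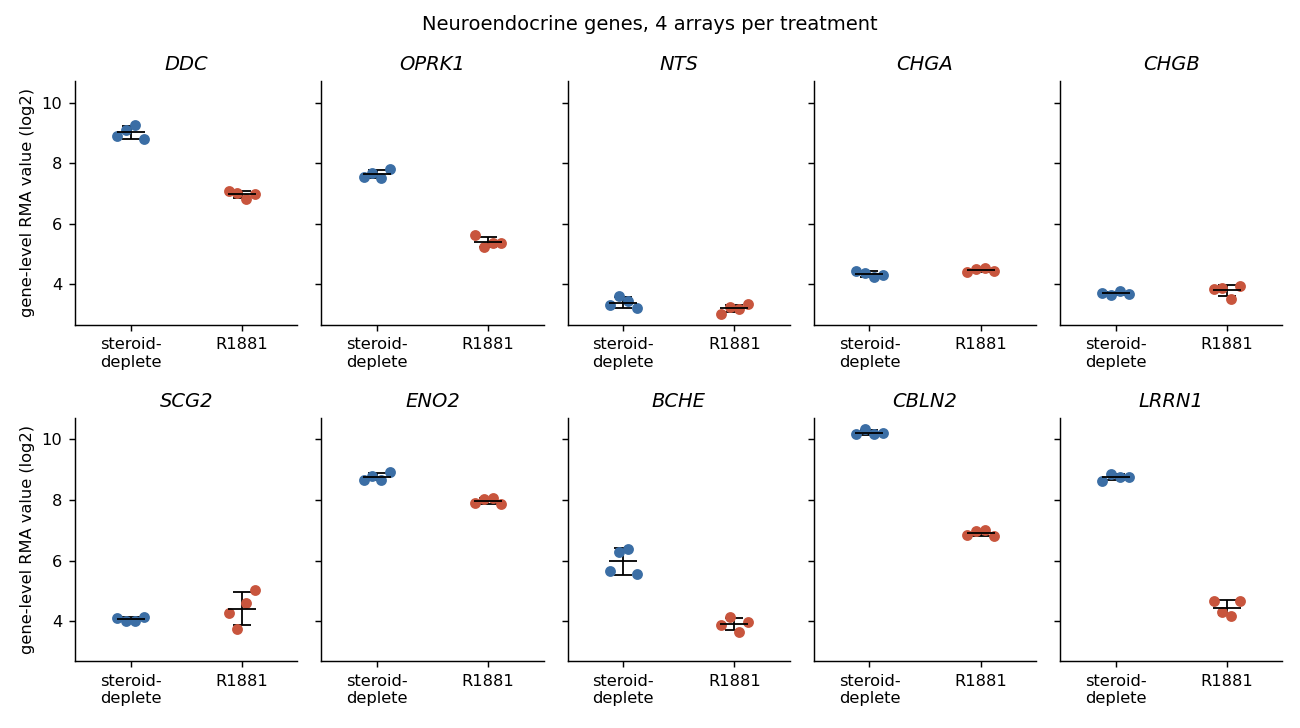
Gene-level RMA values (log2, vertical axis) of the 10 genes in steroid-deplete medium and after R1881, with a point for each of 4 arrays per treatment and black bars for the mean ± SD. *DDC*, *OPRK1*, *ENO2*, *BCHE*, *CBLN2* and *LRRN1* show no overlap between treatments, while *NTS* and the granins overlap.

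*DDC* encodes aromatic L-amino acid decarboxylase, the enzyme that turns L-DOPA into dopamine and 5-hydroxytryptophan into serotonin. The gene lies on the minus strand of chromosome 7 and has a pair of start sites in the RefSeq promoter table (GRCh38.p14). The 250 bases before each start are given here because the probe sets of *DDC* did not move together, and lie at chr7:50565406-50565655 and chr7:50561072-50561321. Capitals mark CCAAT or its reverse complement ATTGG, which was found before the second start and not before the first, and in 32% of the 35116 windows of that length in the table. AGAACA, the core hexamer of androgen response elements, was in neither window on either strand.
DDC start 1: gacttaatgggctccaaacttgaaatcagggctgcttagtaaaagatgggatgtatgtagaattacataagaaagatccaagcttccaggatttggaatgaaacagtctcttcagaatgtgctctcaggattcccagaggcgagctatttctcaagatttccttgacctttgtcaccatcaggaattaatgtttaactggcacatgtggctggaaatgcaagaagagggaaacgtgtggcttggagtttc
DDC start 2: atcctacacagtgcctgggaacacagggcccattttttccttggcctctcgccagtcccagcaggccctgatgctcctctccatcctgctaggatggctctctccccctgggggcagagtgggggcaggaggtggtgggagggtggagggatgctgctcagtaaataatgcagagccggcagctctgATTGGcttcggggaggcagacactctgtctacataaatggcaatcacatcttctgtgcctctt
Positions of the probe sets were not used here, and the submitters named another build, hg18, so the windows were not placed among the probe sets.

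The gene-level values of *DDC* were 8.89, 9.11, 9.25 and 8.80 in steroid-deplete replicates 1 to 4, and 7.09, 7.03, 6.82 and 6.98 in R1881 replicates 1 to 4. Every R1881 array lay below every steroid-deplete array by more than the spread within either treatment. The means were 9.01 ± 0.20 and 6.98 ± 0.12 (SD, 4 arrays each), and the log2 fold change was -2.03 with a standard error of 0.11 and a 95% confidence interval from -2.26 to -1.81 (limma adjusted p = 5.8e-09). The size depended on the gene summary. Iter-PLIER, which drops probes that follow the rest of the gene poorly, gave intensities of 3236 ± 186 and 454 ± 57.7, or a 6.95-fold fall in place of 4.09-fold.

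At exon level, 8 of the 15 *DDC* probe sets fell and 7 were not called, and in order of identifier the 8 came first and the 7 last. The same limits were used, with adjustment over all 620335 probe sets, of which 0.657% were called lower. Among the probe sets with a single symbol the share was 1.21%. Probe set 3050389 had the largest fall, from values of 9.58, 9.92, 10.01 and 9.72 to 5.58, 7.28, 6.83 and 6.54, a log2 fold change of -3.25 (limma adjusted p = 0.00027). It was also the most scattered after R1881, with an SD of 0.72. The fall was smallest for 3050391, at -2.21, with values of 9.52, 9.88, 9.86 and 9.66 without androgen and 7.87, 7.46, 7.48 and 7.28 after R1881. Between these lay 3050393 (-2.73), 3050396 (-2.99), 3050407 (-2.32), 3050416 (-2.64), 3050420 (-3.02) and 3050426 (-2.83). No array of one treatment overlapped the other in any of the 8. The call of 3050416, which varied most between arrays (SD 0.60 in steroid-deplete medium), was lost without steroid-deplete replicate 3 (adjusted p = 0.0053) or without R1881 replicate 3 (adjusted p = 0.0054).

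The other 7 probe sets of *DDC* gave log2 fold changes from -0.07 to 0.58, and the arrays of the treatments overlapped in every one. The smallest was that of 3050438, with 8.77, 8.63, 8.93 and 8.78 in steroid-deplete medium and 8.85, 8.86, 8.47 and 8.95 after R1881. Its log2 fold change was 0.0052, with a 95% confidence interval from -0.42 to 0.43, so a 2-fold fall lies outside the interval. Probe set 3050455 was highest, at 0.58 (4.95, 4.70, 5.08 and 4.50 against 5.74, 5.23, 5.61 and 4.98, adjusted p = 0.25). The remaining 5 were 3050431 (0.19), 3050432 (0.08), 3050440 (0.14), 3050449 (0.38) and 3050453 (-0.07). Averaged over the 8 that fell, the arrays read 10.24 ± 0.18 in steroid-deplete medium and 7.49 ± 0.18 after R1881. Averaged over the other 7, they read 6.61 ± 0.09 and 6.79 ± 0.06 (SD, n = 4 each). The division into 8 and 7 was made after the values had been seen, and these averages are a description.

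**Figure D2:**
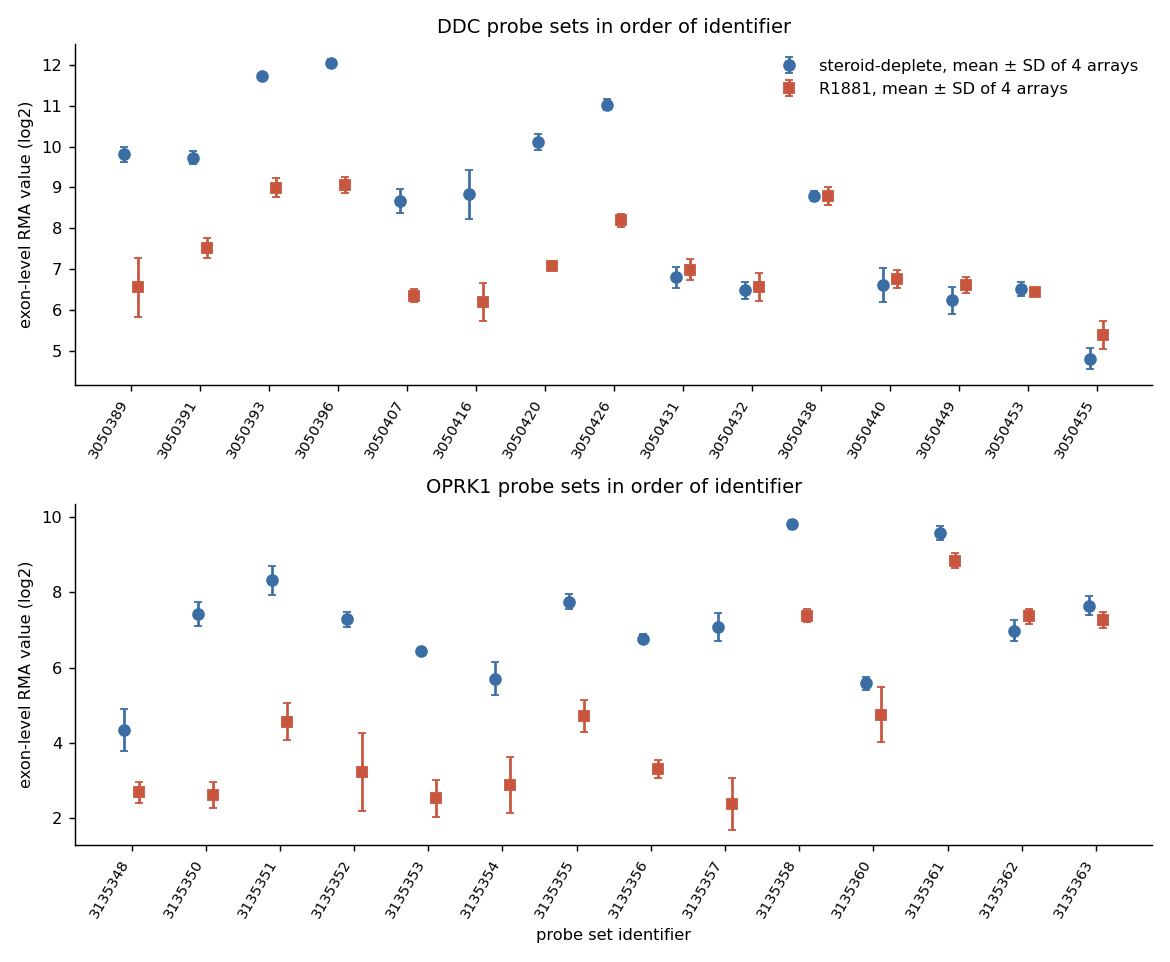
Exon-level RMA values (log2, vertical axis) of the probe sets of *DDC* (top) and *OPRK1* (bottom) in order of identifier (horizontal axis), with circles for steroid-deplete medium, squares for R1881 and bars for the SD of 4 arrays. The first 8 *DDC* probe sets fell by 2.21 to 3.25, and from 3050431 on the treatments overlap; the last 4 of *OPRK1* changed least among its 14.

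The same contrast within *DDC* was tested relative to the gene, by subtracting the gene-level Iter-PLIER value from that of each probe set on the log2 scale. A probe set was tested if gene and probe set were not dim, if the gene changed no more than 10-fold, and if the probe set lay within 5-fold of the gene in the treatment in which it read higher. These filters left 12 of the 15 in *DDC*. Of the 121544 probe sets tested in all genes, 1.97% were called higher and 0.611% lower at p of 0.001 or less. In *DDC*, 5 were called higher relative to the gene and none lower. They were 3050432 (2.80), 3050438 (2.81), 3050440 (3.11), 3050449 (3.28) and 3050455 (3.09), with limma p-values from 7.2e-09 to 2.7e-07. The gene's own Iter-PLIER log2 fold change was -2.80, so a probe set that did not change reads about 2.80 higher relative to it. The calls thus follow from the values already shown and are not separate support for the division. The 7 probe sets that had not fallen lay 3.15 to 4.99 below the gene's log2 value in steroid-deplete medium and 0.33 to 2.39 below it after R1881. The 8 that fell changed between -0.22 and 0.51 relative to the gene, and the lowest of their p-values was 0.014.

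All 5 of these calls rested on the distance filter as it was set. The 5 probe sets met the limit in R1881 alone, at 0.33 to 1.94 below the gene, and all 5 were beyond it in steroid-deplete medium, at 3.15 to 4.99 below. They were tested because their Iter-PLIER values were higher after R1881. Those of 3050431 (2.74 relative to the gene) and 3050453 (2.57) were slightly lower after R1881, by Iter-PLIER log2 fold changes of -0.056 and -0.23, and these probe sets were too far from the gene in steroid-deplete medium to be tested. For 3050432 and 3050438 the Iter-PLIER log2 fold changes were only 0.0071 and 0.018. Without steroid-deplete replicate 3, steroid-deplete replicate 4, R1881 replicate 1 or R1881 replicate 4, 3050432 was no longer tested, though its change was still 2.73 to 2.78 (limma p at most 2.2e-07). The same held for 3050438 without steroid-deplete replicate 1 (2.80) or R1881 replicate 4 (2.74).

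*OPRK1*, the kappa opioid receptor, which binds dynorphin peptides and inhibits adenylyl cyclase through Gi proteins, showed a like division. Its gene-level values were 7.55, 7.68, 7.53 and 7.80 in steroid-deplete medium and 5.65, 5.24, 5.37 and 5.36 after R1881. The treatments did not overlap, and the log2 fold change was -2.24 ± 0.10 (standard error, limma adjusted p = 1.7e-09). Of its 14 probe sets, 9 were called lower, and these followed each other from 3135350 to 3135358 in order of identifier. The largest fall was at 3135350, from 7.05, 7.79, 7.28 and 7.55 to 2.20, 2.46, 2.92 and 2.88 (log2 fold change -4.80, adjusted p = 5e-06). The first, 3135348, changed by -1.66 and missed the limit on p (adjusted p = 0.0083).

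The last 4 probe sets of *OPRK1* changed by -0.83 to 0.38 and none was called, although 2 of them had an unadjusted p under 0.05. The highest was 3135362, with 7.22, 7.17, 6.61 and 6.95 without androgen and 7.18, 7.23, 7.59 and 7.45 after R1881. Relative to the gene, 3135361 (2.20), 3135362 (3.10) and 3135363 (2.12) were higher, with limma p from 4.6e-07 to 1.2e-06. As in *DDC*, these values largely follow from the fall of the gene itself (Iter-PLIER log2 fold change -2.63). Of these probe sets, 3135362 met the distance limit in R1881 alone. In steroid-deplete medium alone it was met by 3135361, at 0.54 above the gene there and 2.75 above it after R1881. Only 3135363 met it in both treatments. Probe set 3135350 fell beyond the gene by 1.28, with a limma p-value of 0.00054. In the fits that left out R1881 replicate 1, 2 or 4, or steroid-deplete replicate 2, 3 or 4, that value lay between -1.27 and -1.13 with limma p-values of 0.0017 to 0.0022, and the call was lost.

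*LRRN1* and *CBLN2* had the largest falls of the 10 genes. *CBLN2* encodes a secreted cerebellin, a C1q family protein that binds neurexins at synapses. Its values were 10.19, 10.35, 10.16 and 10.19 in steroid-deplete medium and 6.84, 6.98, 6.99 and 6.81 after R1881. The means of 10.22 ± 0.08 and 6.91 ± 0.10 (SD) differed by 3.14 to 3.50 (95% confidence interval, limma adjusted p = 6.5e-12). Iter-PLIER gave a 14.9-fold fall in place of 9.98-fold. All 14 probe sets were lower without overlap and 13 were called, from -1.90 at 3812884 to -4.24 at 3812880. The exception was 3812885, with -1.12 (10.46, 10.39, 10.35 and 10.30 against 9.37, 9.03, 9.11 and 9.52, adjusted p = 0.0072).

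*LRRN1* encodes a transmembrane leucine-rich repeat protein of neurons. It had 8.63, 8.86, 8.74 and 8.77 in steroid-deplete medium and 4.66, 4.30, 4.16 and 4.68 after R1881, a log2 fold change of -4.30 ± 0.12 (standard error, limma adjusted p = 1.3e-11). All but the first of its 6 probe sets fell, by 2.26 to 4.97. The first, 2608312, was not called, with 8.82, 8.64, 8.59 and 8.60 against 8.74, 8.59, 8.21 and 8.23 (log2 fold change -0.22, adjusted p = 0.68). The largest fall, at 2608326, was from 7.23, 7.63, 7.45 and 7.59 to 2.50, 2.00, 2.74 and 2.79. Neither gene was tested relative to the gene level, because Iter-PLIER gave both a change of more than 10-fold, and *LRRN1* was also below the limit on gene level after R1881.

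*BCHE*, butyrylcholinesterase, a secreted enzyme that hydrolyses choline esters, was the most scattered of the genes that fell. Its values were 5.65, 6.30, 6.39 and 5.55 in steroid-deplete medium and 3.88, 4.12, 3.63 and 3.99 after R1881. Replicates 1 and 4 were the lower pair in steroid-deplete medium, yet both stood above every R1881 array. The log2 fold change was -2.06 ± 0.18 (standard error, limma adjusted p = 9.2e-07), and the gene's mean was below the median of all clusters. All 8 probe sets had negative log2 fold changes, from -0.95 at 2703905 to -3.05 at 2703912, and 3 were called. Separation without overlap was seen in 7 of the 8.

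Windows of 250 bases before the start of the genes that moved, and of *CHGA* as one that was not called, are given for comparison with those of *DDC*. They lie at chr3:3799181-3799430 on the plus strand for *LRRN1*, chr18:72544343-72544592 on the minus strand for *CBLN2*, chr3:165837424-165837673 on the minus strand for *BCHE* and chr14:92922900-92923149 on the plus strand for *CHGA* (RefSeq, GRCh38.p14). Capitals mark the matches among 4 motifs searched on both strands, which were the hexamer AGAACA, the CCAAT box, the TATA box written as TATAAA, which reads TTTATA on the other strand, and the cAMP response element TGACGTCA. No matches overlapped.
LRRN1: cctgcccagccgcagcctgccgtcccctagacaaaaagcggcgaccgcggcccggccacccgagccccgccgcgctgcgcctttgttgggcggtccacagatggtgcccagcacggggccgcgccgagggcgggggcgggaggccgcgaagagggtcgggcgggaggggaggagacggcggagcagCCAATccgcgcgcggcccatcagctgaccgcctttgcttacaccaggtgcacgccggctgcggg
CBLN2: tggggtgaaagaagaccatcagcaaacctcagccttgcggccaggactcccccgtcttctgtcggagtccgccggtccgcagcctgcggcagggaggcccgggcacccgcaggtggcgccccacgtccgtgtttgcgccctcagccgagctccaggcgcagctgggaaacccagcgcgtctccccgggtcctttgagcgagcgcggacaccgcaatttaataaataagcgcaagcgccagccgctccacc
BCHE: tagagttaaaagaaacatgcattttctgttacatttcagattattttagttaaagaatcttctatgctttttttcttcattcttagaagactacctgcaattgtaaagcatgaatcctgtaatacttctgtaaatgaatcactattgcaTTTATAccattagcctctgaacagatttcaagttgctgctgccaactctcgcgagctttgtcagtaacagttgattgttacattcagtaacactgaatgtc
CHGA: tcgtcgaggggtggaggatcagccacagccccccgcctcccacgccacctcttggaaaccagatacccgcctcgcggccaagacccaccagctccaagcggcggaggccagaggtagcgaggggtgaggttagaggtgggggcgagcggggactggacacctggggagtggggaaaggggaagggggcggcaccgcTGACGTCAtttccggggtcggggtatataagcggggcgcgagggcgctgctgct
The table held 8 windows for 7 of the 10 genes, the others being *ENO2* and *NTS*, which held no match. AGAACA was in 0 of the 8 windows and in 12.4% of all windows in the table. CCAAT was in 2, *LRRN1* and the second *DDC* window. TATAAA was in that of *BCHE*, 101 bases before the start (10.7% of all windows), and TGACGTCA in that of *CHGA* (1.65% of all windows). Only these exact letters were searched, at any distance from the start, so variants such as other TATA-like stretches were not counted. These matches are a description of the letters in the windows.

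*ENO2* was lower on every R1881 array but did not reach the 2-fold limit. Its values were 8.67, 8.79, 8.67 and 8.91 in steroid-deplete medium and 7.90, 8.03, 8.05 and 7.88 after R1881, a log2 fold change of -0.79 ± 0.09 (standard error, limma adjusted p = 8e-06). The call depended on the summary, since Iter-PLIER gave a 2.01-fold fall (adjusted p = 6.9e-05). Of its 14 probe sets, 11 were lower without overlap, from -0.61 to -1.21, and only 3403035, with the largest of these changes, was called. Its values were 8.84, 8.95, 8.89 and 9.15 without androgen and 7.76, 7.83, 7.86 and 7.53 after R1881. By Iter-PLIER 5.67% of all clusters were called lower.

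Near the start of the order of identifiers, *ENO2* had a pair of probe sets with positive values. Probe set 3403017 had a log2 fold change of 0.93, with 3.91, 4.12, 4.29 and 4.06 without androgen and 5.44, 4.53, 5.35 and 4.81 after R1881 (adjusted p = 0.059). The other, 3403018, had 0.31 and was called higher relative to the gene, by 1.54, and it met the distance limit in R1881 alone. That call was lost without steroid-deplete replicate 2, R1881 replicate 1 or R1881 replicate 3 (1.37 to 1.48, p from 0.001 to 0.0013).

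The granins and *NTS*, the gene of the peptide neurotensin, showed no called difference. *CHGA*, chromogranin A, had 4.45, 4.37, 4.24 and 4.30 in steroid-deplete medium and 4.40, 4.50, 4.53 and 4.45 after R1881 (log2 fold change 0.13, 95% confidence interval -0.04 to 0.30, limma adjusted p = 0.26), and the sign turned with Iter-PLIER (-0.040). *CHGB*, chromogranin B, had 3.73, 3.66, 3.78 and 3.68 against 3.85, 3.87, 3.54 and 3.96 (0.09, -0.12 to 0.30, adjusted p = 0.54), with 0.18 without R1881 replicate 3 and 0.038 without R1881 replicate 4. A 2-fold change of the array signal in either direction is outside both intervals, though both genes read below 4.89, the 25th percentile of all clusters.

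*SCG2*, secretogranin II, was even across the steroid-deplete arrays and spread after R1881. It had 4.12, 4.0, 4.0 and 4.15 without androgen and 4.27, 3.75, 4.6 and 5.02 after R1881, with SDs of 0.08 and 0.54 (log2 fold change 0.34, -0.08 to 0.76, adjusted p = 0.23). The value rested on single arrays, since it was 0.56 without R1881 replicate 2 (adjusted p = 0.0084, under 2-fold and not called) and 0.14 without R1881 replicate 4 (adjusted p = 0.59). *NTS* had 3.31, 3.62, 3.46 and 3.22 against 3.04, 3.25, 3.20 and 3.34 (-0.19, -0.41 to 0.03, adjusted p = 0.18), and -0.12 without steroid-deplete replicate 2. Its size depended on the summary, since Iter-PLIER gave -0.53 (limma adjusted p = 0.042, not called). The Iter-PLIER intensities were low, at 25.2 ± 11.6 in steroid-deplete medium and 11.8 ± 3.3 after R1881 (SD). None of the 30 probe sets of these 4 genes was called, by limma or by the methods' t-test, and 1, in *NTS*, had an unadjusted p under 0.05. Their log2 fold changes ran from -0.71 at 3424901 to 0.42 at 3424904 in *NTS*, from -0.26 at 3549095 to 0.52 at 3549097 in *CHGA*, from -0.19 at 3875193 to 0.29 at 3875180 in *CHGB* and from 0.36 at 2601236 to 0.42 at 2601238 in *SCG2*. The 4 genes had means below 4.89, the 25th percentile of all clusters, in both treatments.

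Over all 10 genes, 39 of the 101 probe sets were called lower by limma, and 30 by the methods' t-test. By limma, 0.657% of all probe sets and 1.21% of those with a single symbol were called lower. None of the 101 was called higher by either test, where limma called 0.679% of all probe sets higher. At an unadjusted p under 0.05, 2 of the 101 had higher values. Arrays of the treatments were separated with R1881 lower in 56 probe sets, where 6.82% of all probe sets were. Relative to the gene, 34 probe sets of *DDC*, *OPRK1* and *ENO2* passed the filters, and 9 were called higher and 1 lower. Of all probe sets tested in this way, 1.97% were called higher and 0.611% lower. Most of those called higher met the distance limit in a single treatment, and probe sets of the same gene are not independent. Among the 5 called genes the range of probe set changes was widest in *OPRK1*, *LRRN1* and *DDC*, in which the highest log2 fold changes were 0.38, -0.22 and 0.58 and the lowest -4.80, -4.97 and -3.25.

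**Figure D3:**
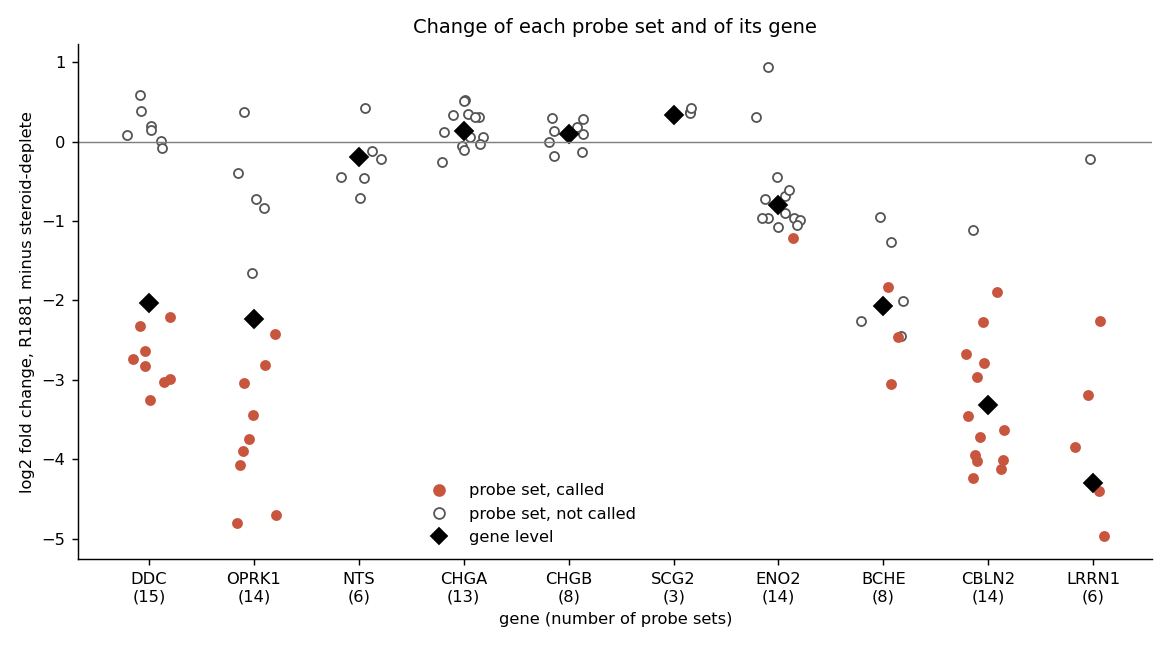
Log2 fold change (R1881 minus steroid-deplete, vertical axis) of each probe set of the 10 genes (horizontal axis, number of probe sets in brackets), with filled circles for called probe sets, open circles for the rest and a diamond for the gene-level value. The probe sets of *DDC* form a lower group of 8 and a group of 7 near 0, with the gene-level value of -2.03 between them.

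Lists of genes with related functions show how far the change reached. Of 15 measured genes of monoamine synthesis and handling, *DDC* was the single one called, where 2.04% of all clusters were called lower and 1.94% higher. With the limit at an adjusted p of 0.05 and none on fold, which 19.8% of all clusters met as lower and 10.5% as higher, 3 of the 15 were lower and 3 higher. Monoamine oxidase A, *MAOA*, which breaks down the amines, was 0.44 higher on the log2 scale, and *QDPR*, which recycles the tetrahydrobiopterin cofactor of the hydroxylases, was 0.61 lower, both named after their values had been seen. *TH*, tyrosine hydroxylase, the enzyme before *DDC* in dopamine synthesis, had a log2 fold change of 0.12 (adjusted p = 0.29). Among 19 peptide receptors *OPRK1* was the single one called.

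Among these lists of related functions, the cholinergic list held the only genes beyond the 10 that were called with RMA values. With Iter-PLIER values, the prohormone processing gene *PCSK6* (-1.03) and the cerebellin partner *NRXN3* (-1.01) were also called lower, where 5.67% of all clusters were. *SLC44A1*, a choline transporter, had 8.86, 9.10, 8.89 and 8.97 in steroid-deplete medium and 6.53, 6.68, 6.94 and 6.42 after R1881 (log2 fold change -2.31, limma adjusted p = 2.5e-09). *CHRNA5*, a nicotinic acetylcholine receptor subunit, had 7.07, 7.38, 7.20 and 6.94 against 5.86, 6.0, 6.23 and 5.49 (-1.25, adjusted p = 1.2e-05, but 0.005 and not called by the methods' t-test). With *BCHE*, itself among the 10 chosen genes, 3 of the 12 measured cholinergic genes were called lower and 0 higher by limma. The methods' t-test called 2. Over all clusters, limma called 2.04% lower and 1.94% higher. Of the other genes of their families, neither 2 cerebellins (*CBLN1* 0.21, *CBLN4* 0.16), nor 2 enolases (*ENO1* -0.17, *ENO3* -0.12), nor *LRRN2* (0.17), *LRRN3* (-0.33) and *LRRN4* (0.15) were called, of which *LRRN3* alone had an unadjusted p under 0.05.

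No gene of 23 measured neuroendocrine markers and regulators was called at these limits by limma or the methods' t-test. At an unadjusted p under 0.05, 6 were lower and 3 higher, a limit for which no share over all clusters is given. At an adjusted p under 0.05, 19.8% of all clusters were lower and 10.5% higher. By that limit 6 of the 23 were lower, with *ENO2* of the 10 chosen genes among these, and 2 were higher. Among them, named after their values were seen, were *EZH2*, a histone methyltransferase (-0.64), *RAB3A*, a GTPase of secretory vesicles (-0.60), and *UCHL1*, a neuronal deubiquitinase (0.61). None of 6 granins, 9 prohormone processing genes and 19 neuropeptides was called by either test, and at an unadjusted p under 0.05 they had 0, 2 and 0 lower and 0, 1 and 2 higher. Over the 105 measured genes of these lists beyond the 10, 2 were called lower and 0 higher, and the median log2 fold change was 0.06. Of all clusters, 2.04% were called lower and 1.94% higher, so the count of lower calls is near the share over the whole array.

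**Figure D4:**
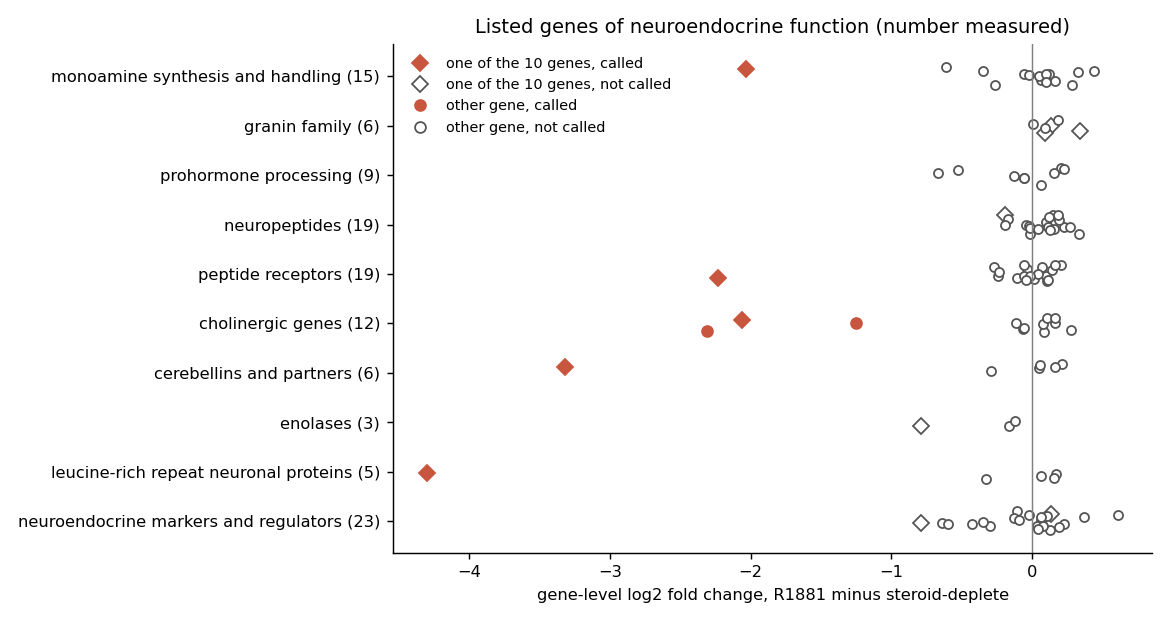
Gene-level log2 fold change (R1881 minus steroid-deplete, horizontal axis) of the measured genes of 10 lists (vertical axis, number measured in brackets), with diamonds for the 10 chosen genes, circles for others, and filled marks for called genes. Most open circles lie near 0, and the filled circles are *SLC44A1* (-2.31) and *CHRNA5* (-1.25).

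The genes whose arrays followed *DDC* most closely were found by the root mean square difference of values centred on each gene's own mean over the 8 arrays, among 13344 genes. They were *OSR2*, a zinc finger transcription factor (0.14), *EFCAB11*, an EF-hand protein (0.15), and *MACIR* (0.15). *OSR2* had 8.48, 8.67, 8.68 and 8.64 in steroid-deplete medium and 6.66, 6.42, 6.56 and 6.42 after R1881. The log2 fold changes of the 3 genes were -2.10, -2.01 and -1.84. The measure takes in the difference between the treatments, so a gene with a fall of like size comes out near *DDC*.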

How the data were processed

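RNA of 8 LNCaP cultures was hybridised to Human Exon 1.0 ST arrays, 4 in each treatment, and arrays were grouped by the treatment in their labels. The authors made the deposited gene-level and exon-level log2 values with RMA (background correction by antigenomic probes, quantile normalisation, summary over the probes of a feature). The deposited Iter-PLIER values of genes and probe sets are intensities on a linear scale, and the methods name PLIER for the probe sets. The submitters' processing notes name RMA, PLIER and hg18 without a version.

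The log2 values were compared with limma 3.58.1 in R 4.3.3 (package data.table, version 1.17.8, for reading), with Benjamini-Hochberg adjustment over all 16309 transcript clusters or all 620335 probe sets, and p-values are those of this moderated two-sided fit across all features. Iter-PLIER intensities entered as log2 of the value plus 16, which understates changes of dim features. The methods' t-test, other scalings and limits, a filter on dim features, a block for the replicate number and omission of each array were alternatives. The detection p-values of the study were replaced by filters on level. A gene needed a mean at or above the 25th percentile of clusters in each treatment, and a probe set a mean at or above the median of probe sets in its higher treatment. Symbols came from the array annotation, and features with several symbols were not named. The fits were run on simulated data, where the recovery demanded at exon level was far below that at gene level. A probe set that was not called may therefore still have changed.

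The 10 genes and all gene lists were chosen with earlier results of these data known. Besides the 10, up to 3 called genes with the largest change were named from each list, and others where stated. For probe sets, all of *DDC* and the highest and lowest of each other gene were named. Cultures were grown in quadruplicate according to the methods. Arrays give no count of molecules, and their number limits the precision. No promoter sequence was used for *OPRK1*, *CHGB* and *SCG2*.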

Additional observations from a re-analysis of the deposited data

Results flagged for a closer look

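In 5 of 102 groups of 4 arrays, a single array stood apart from the other 3 beyond Dixon's limit for 4 values. Chance alone gives about 1 in 20 such groups, or 5.1. The groups were the treatments of the 10 genes, of all *DDC* probe sets and of the highest and lowest probe set of each other gene. Called genes of the lists and the 3 genes nearest *DDC* were also included, and other features were not screened. In *CBLN2*, steroid-deplete replicate 2 read 10.345 against 10.164 to 10.194 in the others. In *DDC*, probe set 3050420 read 9.806 in steroid-deplete replicate 1 against 10.191 to 10.243, and probe set 3050432 read 7.075 in R1881 replicate 1 against 6.324 to 6.43. Without that array, 3050432 was still not called (log2 fold change -0.094). In R1881 replicate 4, *KLK2* read 11.08 against 11.233 to 11.261, and *EFCAB11* read 6.689 against 6.899 to 6.927. The difference between treatments was larger than the distance of the array that stood apart in all of these except *DDC* probe set 3050432. Outside the screened groups, *LRRN3* read 4.515 in steroid-deplete replicate 4 against 4.096 to 4.115 in the others. In R1881 replicate 4 it read 3.475 against 4.008 to 4.021, so its unadjusted p rested on single arrays.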

How the results depend on the processing

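The count of 5 called genes was 5 with each array left out (5 to 5), with arrays centred or quantile normalised, with an intensity trend and by the methods' t-test. It was 6 with Iter-PLIER values or with an adjusted p under 0.05 and no fold limit, where *ENO2* joined, and 4 with clusters at or above the median, which leave out *BCHE*. *CHGA* turned from 0.13 to -0.040 (log2) with Iter-PLIER and was called in neither. Over all clusters, 333 were lower and 317 higher. These became 924 and 444 with Iter-PLIER, 3230 and 1711 with an adjusted p under 0.05 and no fold limit, 259 and 372 with centred arrays (a shift of 0.101 in the median log2 fold change), and 304 to 391 and 295 to 334 with an array left out. Member probe sets called numbered 39, or 30 by the methods' t-test, 52 at the looser limit and 34 to 37 with an array left out. For *DDC* they were 8, or 6 by the methods' t-test (without 3050389 and 3050416), and 7 to 8 with an array left out. Over all probe sets, 4073 were lower and 4211 higher, against 6989 and 6105 with Iter-PLIER, 14858 and 10254 at the looser limit, 6586 and 5710 with probe sets at or above the median, 1392 and 1955 by the methods' t-test, and 1745 to 2535 and 2486 to 3187 with an array left out. Relative to the gene, 10 member probe sets were called, 18 with RMA values and 7 to 9 with an array left out, while over all genes 3138 became 1628 with RMA values and 2044 with a pseudocount of 1. The causes were not tested.

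Replicate numbers did not pair the arrays: deviations from the group means of same-numbered arrays correlated at 0.07, 0.10, -0.10 and -0.06, and 1 of 8 arrays correlated best with its own number. With the number as a block, 5 genes, 36 member probe sets, 8 of *DDC* and 10 relative to the gene were called, and 1546 and 1983 of all probe sets were lower and higher.

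The second principal component (8.27% of the variance) set steroid-deplete replicate 1 and R1881 replicate 4 apart from the other arrays. Leaving out both, an alternative chosen after seeing the data, gave 5 genes, 30 member probe sets, 6 of *DDC* (without 3050389 and 3050416) and 7 relative to the gene, and over all probe sets 1153 lower, 1675 higher and 2014 relative to the gene.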
